A study of Mus musculus with 4 samples.

Results

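The genes described here act in the kidney's response to aldosterone: the early target kinase Sgk1, the leucine zipper gene Tsc22d3, the 3 subunits of the epithelial sodium channel (Scnn1a, Scnn1b and Scnn1g), the mineralocorticoid receptor Nr3c2, the enzyme Hsd11b2, the ubiquitin ligase Nedd4l, the kinase Wnk1 and the sodium pump regulator Fxyd4. They were chosen by name, and all their probe sets were taken. Of the 10 genes, 9 had a probe set, 13 probe sets in all among 22690, and all 9 were past the filter on low values together with 8207 of 12394 genes. The annotation used here names no probe set for Nr3c2, so the receptor itself was not analysed here.

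RNA of whole kidneys was hybridised to Affymetrix arrays, with 1 array for each of 4 groups of C57BL/6 mice that the labels give as male and 17 weeks old. In the GN+Captopril and GN+Water groups, glomerulonephritis (GN) was induced with intraperitoneal horse spleen apoferritin, 10 mg on 5 days a week, and 100 µg of lipopolysaccharide 3 times a week as adjuvant. The Saline+Captopril and Saline+Water groups were injected with 0.15 M NaCl, and injections ran for 6 weeks in every group. The captopril groups drank 100 mg/kg/day of this inhibitor of angiotensin converting enzyme, the water groups drank water, and kidneys were taken after 9 weeks. Each group had 6 mice, and the sources do not state if the RNA on an array came from a single mouse or a pool. With 1 array per group no value below has an error or a replicate check, and none was tested.

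Aldosterone binds the mineralocorticoid receptor in the distal nephron and collecting duct, and the receptor then raises transcription of genes that increase sodium uptake. One of the early products is Sgk1, a kinase that phosphorylates Nedd4l and so keeps this ligase from removing the sodium channel from the cell surface. Hsd11b2 inactivates glucocorticoids in the same cells and so leaves the receptor to aldosterone. Angiotensin II drives aldosterone release from the adrenal gland, and inhibitors of its formation are known to lower aldosterone.

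Values were on the log2 scale, and genes were counted as higher or lower when they differed by at least 1.5-fold between 2 arrays. Among the arrays, 2 stood apart from the rest. The GN+Water-labelled array had Xist, which coats the inactive X, at 8.97 and the Y-linked Eif2s3y at 3.43, against 5.02 to 5.21 and 8.02 to 8.29 on the other 3 arrays, which goes against its male label. Saline+Water had a spike-in median of 10.84 against 7.46 to 7.89 on the others, and it correlated with them at 0.945 to 0.966 (Pearson, across probe sets) where they correlated with each other at 0.982 to 0.994. The comparison of GN+Captopril with Saline+Captopril is the only one that uses neither array. In that comparison 9.19% of the 8207 genes had identical deposited values on both arrays, against 0.877% to 4.52% in the other 3. Of the markers that define kidney epithelium, Umod of the thick ascending limb was between 13.22 and 13.52 and Lrp2 of the proximal tubule between 11.74 and 12.07, while the principal cell gene Elf5 was under the filter, at 5.06 to 5.90.

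Sgk1 and Tsc22d3 had the widest ranges among the 9 genes, and both are known to be induced through the glucocorticoid and mineralocorticoid receptors. These receptors bind a palindrome made of the hexamer AGAACA, a spacer of 3 bases and the reverse complement TGTTCT. Promoter windows of RefSeq (GRCm38.p6), 250 bases before to 50 after a transcript start, were searched for the exact palindrome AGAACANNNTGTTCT, which reads the same on both strands, and for the hexamer on either strand. Windows were searched for 7 of the 10 genes, 14 windows in all, of which 6 were of Sgk1. Scnn1a and Hsd11b2 had no window and Nedd4l was left out of the search, while the counts over the whole table left out no gene. The palindrome occurred in 3 of 32851 windows of the whole table, 0.00913%, and 1 of the 3 was a window of Sgk1. The other two belonged to Acnat2 and to Gm35041, and Acnat2 was at 9.49 on GN+Captopril and 9.49 on the GN+Water-labelled array, against 9.75 on Saline+Captopril and 9.99 on Saline+Water. The hexamer occurred in 6233 windows, 19.0%, and in 4 of the 14 windows, 3 of Sgk1 and 1 of Tsc22d3. The Sgk1 window with the palindrome and the Tsc22d3 window with the hexamer are shown because these genes differed most between arrays, with the hexamers in capitals.
Sgk1, chr10:21993640-21993939, plus strand: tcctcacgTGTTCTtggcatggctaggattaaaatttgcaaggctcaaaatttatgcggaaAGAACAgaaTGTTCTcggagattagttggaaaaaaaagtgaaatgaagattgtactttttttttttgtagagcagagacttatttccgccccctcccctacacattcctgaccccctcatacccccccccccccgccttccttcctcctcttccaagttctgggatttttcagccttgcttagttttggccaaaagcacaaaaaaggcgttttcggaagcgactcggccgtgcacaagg
Tsc22d3, chrX:140600473-140600772, minus strand: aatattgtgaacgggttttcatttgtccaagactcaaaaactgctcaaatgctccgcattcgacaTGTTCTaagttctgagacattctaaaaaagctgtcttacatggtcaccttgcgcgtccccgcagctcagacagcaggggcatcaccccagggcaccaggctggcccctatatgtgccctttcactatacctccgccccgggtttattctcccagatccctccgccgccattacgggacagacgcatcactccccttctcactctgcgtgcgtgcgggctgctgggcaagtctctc
In the Sgk1 window the palindrome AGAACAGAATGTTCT starts 189 bases before the transcript start, at position 21993701 of chromosome 10. A match of letters is a description of the window and not evidence of binding, and Sgk1 has 6 windows in the table, 1 for each annotated start.

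Sgk1 stood highest on the GN+Water-labelled array. Its single probe set was at 9.09 on GN+Captopril and 11.05 on the GN+Water-labelled array, against 9.70 on Saline+Captopril and 9.10 on Saline+Water. The GN+Water-labelled array lay above the other 3, and GN+Captopril and Saline+Water were nearly level. Sgk1 was 3.86-fold higher on the GN+Water-labelled array than on Saline+Water, and 2.55-fold higher than on Saline+Captopril. In GN kidneys it was 3.89-fold lower with captopril than with water, rank 16 from the lowest of 8207 genes. Between the arrays of captopril-treated mice it was 1.53-fold lower in GN than in saline kidneys, rank 14 from the lowest. In saline kidneys it was 1.51-fold higher with captopril than with water, a difference of 0.599 just past the limit of 0.585.

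The Sgk1 differences thus ran in opposite directions in each pair of comparisons. The GN difference was −0.61 on captopril and 1.95 on water, and −2.56 separates them, rank 34 from the lowest of 8207 genes. No error is available for that value, and it rests on both arrays that went against the rest. The 3 genes with the most similar profile over the 4 arrays were Rdh16f2, Elovl6 and Npnt, with root mean square differences of 0.068, 0.18 and 0.19 after centring. Rdh16f2, a retinol dehydrogenase family gene, was at 10.20 on GN+Captopril and 12.05 on the GN+Water-labelled array, against 10.62 on Saline+Captopril and 10.08 on Saline+Water.

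Tsc22d3, which encodes the glucocorticoid-induced leucine zipper protein GILZ, stood apart on Saline+Water rather than on the GN+Water-labelled array. Its probe set with the highest mean was at 8.46 on GN+Captopril and 9.03 on the GN+Water-labelled array, against 8.84 on Saline+Captopril and 7.51 on Saline+Water. Saline+Water was the lowest of the 4, 0.95 under GN+Captopril. Tsc22d3 was 2.87-fold higher on the GN+Water-labelled array than on Saline+Water, but 1.14-fold higher with Saline+Captopril as the baseline. Saline+Captopril was 2.52-fold above Saline+Water, rank 258 from the highest. In GN kidneys captopril went the other way, with Tsc22d3 1.48-fold lower, just short of 1.5-fold. Between the arrays of captopril-treated mice it was 1.30-fold lower in GN than in saline kidneys, rank 93 from the lowest. The GN difference of Tsc22d3 thus also ran in opposite directions, −0.38 on captopril and 1.52 on water. A value of −1.90 separates them, rank 141 from the lowest. Like that of Sgk1, it has no error and rests on both arrays that stood apart.

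The 3 probe sets of Tsc22d3 differed from each other. The second was at 8.12 on GN+Captopril and 8.48 on the GN+Water-labelled array, against 8.25 on Saline+Captopril and 7.56 on Saline+Water, the same order with smaller steps. The other, with the suffix x, was at 7.58 on GN+Captopril and 7.64 on the GN+Water-labelled array, against 7.64 on Saline+Captopril and 7.76 on Saline+Water, so Saline+Water was its highest array by a small margin. The suffix x marks probes that may match other sequences. Averaged over the 3 probe sets, Tsc22d3 was higher on the GN+Water-labelled array than on Saline+Water by 0.77 in place of 1.52. Saline+Captopril relative to Saline+Water was then 0.63 in place of 1.33. GN+Captopril was −0.19 in place of −0.38 relative to Saline+Captopril, and −0.33 in place of −0.57 relative to the GN+Water-labelled array. Its nearest profiles were Lnx1, Mgst1 and Cachd1, with root mean square differences of 0.037, 0.076 and 0.094, and Mgst1, a microsomal glutathione transferase gene, was at 11.46 on GN+Captopril and 11.92 on the GN+Water-labelled array, against 11.64 on Saline+Captopril and 10.35 on Saline+Water.

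**Figure D1:**
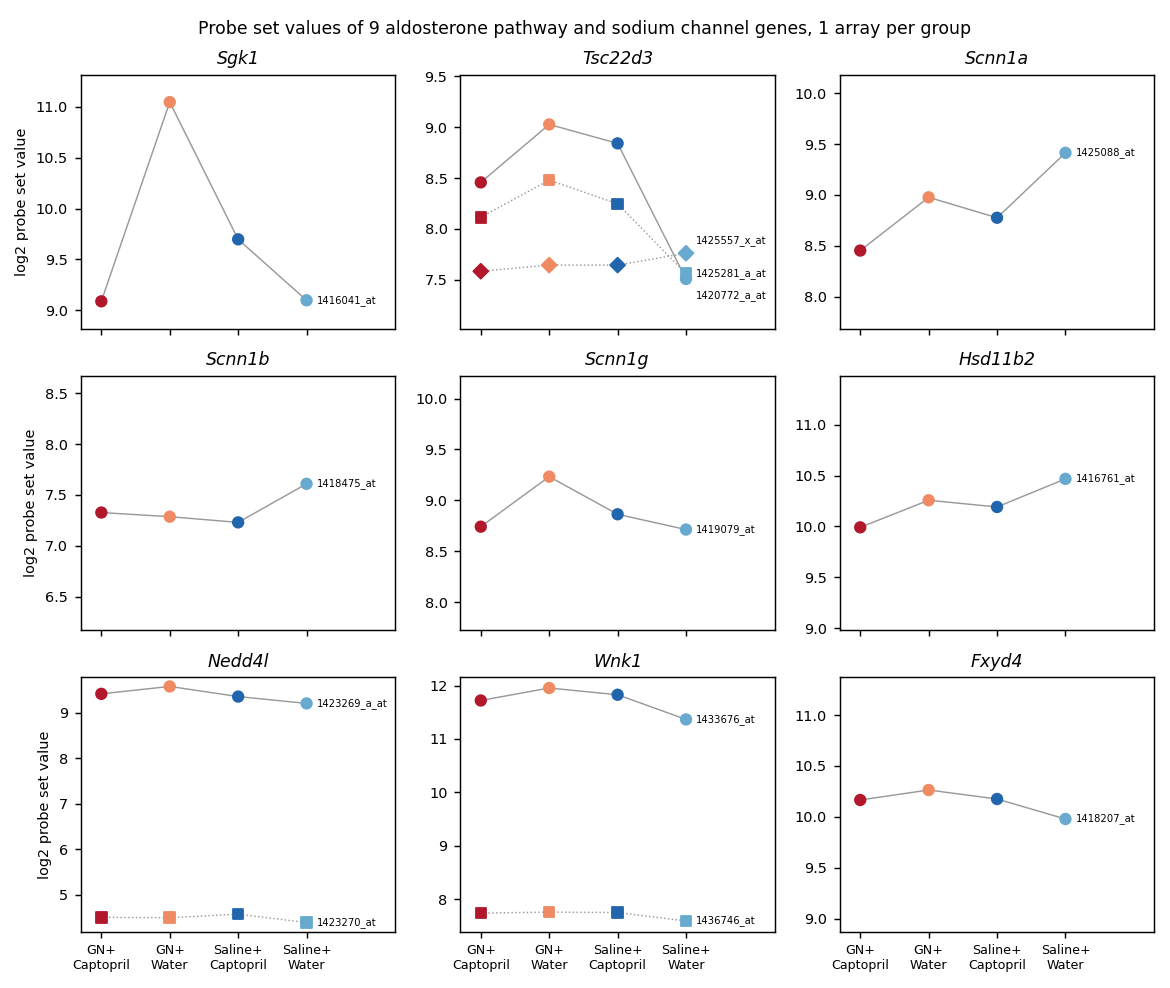
Log2 probe set values of the 9 genes on the 4 arrays, 1 point per array, with arrays along the horizontal axis and a vertical axis of its own for each gene. Lines join the values of 1 probe set, solid for the probe set with the highest mean and dotted for others. Sgk1 is at 11.05 on the GN+Water-labelled array and between 9.09 and 9.70 elsewhere, and the solid Tsc22d3 line is lowest on Saline+Water at 7.51.

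The sodium channel subunits did not share a pattern. Scnn1a, the alpha subunit that the channel needs to conduct and the one whose transcript aldosterone is known to raise in kidney, was at 8.45 on GN+Captopril and 8.98 on the GN+Water-labelled array, against 8.78 on Saline+Captopril and 9.41 on Saline+Water. Scnn1b, the beta subunit, was at 7.33 on GN+Captopril and 7.29 on the GN+Water-labelled array, against 7.23 on Saline+Captopril and 7.61 on Saline+Water. Scnn1g, the gamma subunit, was at 8.74 on GN+Captopril and 9.23 on the GN+Water-labelled array, against 8.86 on Saline+Captopril and 8.71 on Saline+Water. Scnn1a and Scnn1b were highest on Saline+Water, Scnn1g on the GN+Water-labelled array, where Sgk1 was also highest.

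Scnn1a was lower with captopril in both settings, by 0.52 in GN kidneys (1.44-fold) and by 0.64 in saline kidneys (1.56-fold). The first of these used the GN+Water-labelled array and the second Saline+Water, the 2 arrays that stood apart. In both settings captopril cannot be told apart from the traits of those arrays. Scnn1a was also lower with GN, by 0.44 on water, which used both of those arrays, and by 0.32 on captopril, which used neither. The 2 GN differences were 0.11 apart. Between the captopril arrays Scnn1a had rank 161 from the lowest of 8207 genes. Scnn1b was 1.03-fold higher with captopril in GN kidneys and 1.30-fold lower in saline kidneys. Scnn1g was 1.41-fold lower with captopril in GN kidneys and 1.11-fold higher in saline kidneys. Scnn1b and Scnn1g lie beside each other on chromosome 7 with no other protein-coding gene starting between them, yet Scnn1g was 0.52 higher and Scnn1b was lower by 0.32 on the GN+Water-labelled array relative to Saline+Water.

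Hsd11b2, which marks aldosterone-responsive cells, was at 9.99 on GN+Captopril and 10.26 on the GN+Water-labelled array, against 10.19 on Saline+Captopril and 10.47 on Saline+Water. Its steps were small and even: with captopril it was lower by 0.27 in GN and by 0.28 in saline kidneys, and with GN lower by 0.20 on captopril and by 0.21 on water. The 2 GN differences were 0.01 apart. No step reached 1.5-fold. The captopril steps again each used 1 of the 2 arrays that stood apart.

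Scnn1a and Hsd11b2 were the 2 of 9 genes lower with captopril in both settings, and 0 were higher in both. Over all 8207 genes 18.6% were lower in both and 23.0% higher in both, while 52.7% went opposite ways. Both genes ran in the order Saline+Water, the GN+Water-labelled array, Saline+Captopril, GN+Captopril from high to low, an order seen after their values were known and shared by 335 of 8207 genes, 4.08%. In whole kidney RNA, fewer cells of a type and less RNA per cell cannot be told apart. Of 7 markers of the distal convoluted tubule and thick ascending limb, 3 had this order. Slc12a3, the thiazide-sensitive cotransporter, was at 11.27 on GN+Captopril and 11.58 on the GN+Water-labelled array, against 11.44 on Saline+Captopril and 11.99 on Saline+Water. The calcium-binding protein genes Calb1 and Pvalb also had it, with Calb1 between 11.26 and 12.56 and Pvalb between 5.57 and 9.31. The other 4 did not have it. Trpm6, also of the distal convoluted tubule, was slightly lower on the GN+Water-labelled array (6.81) than on Saline+Captopril (6.82), and Umod was highest on the GN+Water-labelled array. Slc12a1 and Cldn16, of the thick ascending limb, were lowest on Saline+Water, at 11.60 against 12.47 to 12.74 for Slc12a1 and 7.72 against 8.72 to 9.29 for Cldn16. None of the 5 principal cell markers past the filter had it. The part of tubule composition in the Scnn1a and Hsd11b2 values was not tested.

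**Figure D2:**
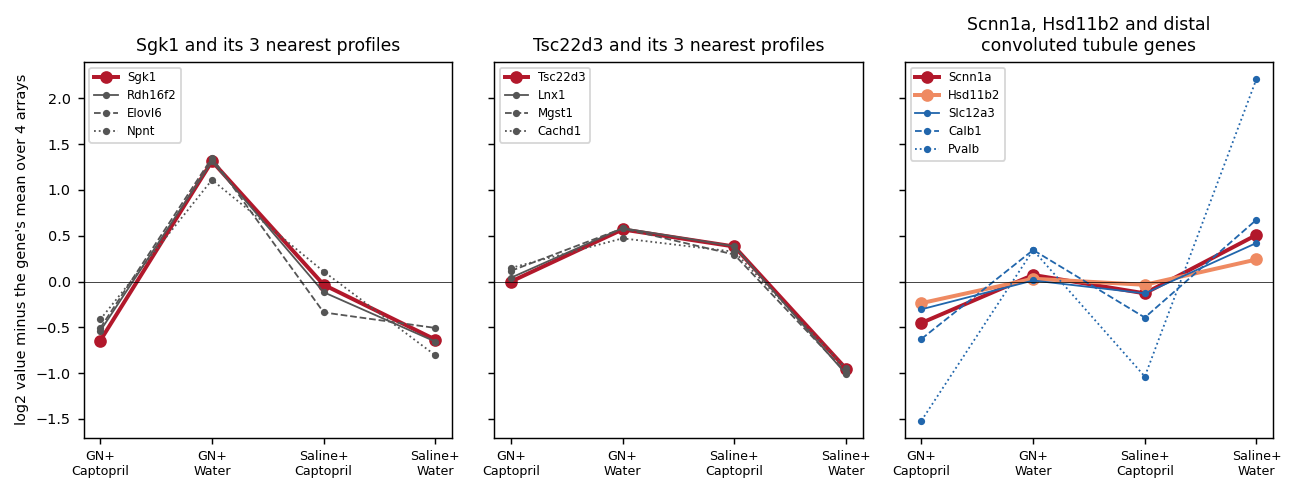
Log2 values minus each gene's mean over the 4 arrays, 1 point per array. The left panel shows Sgk1 with its 3 nearest profiles, the middle panel Tsc22d3 with its 3 nearest, and the right panel Scnn1a and Hsd11b2 with 3 genes of the distal convoluted tubule, which all run in the same order and differ in the size of their steps, from 0.48 in all for Hsd11b2 to 3.73 for Pvalb.

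Nedd4l, Wnk1 and Fxyd4 were each highest on the GN+Water-labelled array and lowest on Saline+Water, as were Scnn1g and Tsc22d3, 5 of 9 genes, where 20.1% of all genes were. The first Nedd4l probe set was at 9.41 on GN+Captopril and 9.57 on the GN+Water-labelled array, against 9.35 on Saline+Captopril and 9.20 on Saline+Water. Its second probe set was at 4.38 to 4.57 and lay at or under the background limit on 1 array, so it carries little more than background. By its first probe set the ligase gene stayed within 0.37 over the 4 arrays, where its opposing kinase gene Sgk1 spanned 1.96.

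Wnk1, a kinase of salt transport whose kidney form lacks the kinase domain, was at 11.72 on GN+Captopril and 11.95 on the GN+Water-labelled array, against 11.83 on Saline+Captopril and 11.37 on Saline+Water. It was higher on the GN+Water-labelled array than on Saline+Water by 0.588, just past the limit of 0.585, and 1.09-fold higher than on Saline+Captopril. Its second probe set differed by 0.17 at most between arrays. The probe sets were not assigned to the long or the kidney form. Fxyd4, a regulator of the sodium pump in collecting duct also called corticosteroid hormone-induced factor, was at 10.17 on GN+Captopril and 10.26 on the GN+Water-labelled array, against 10.18 on Saline+Captopril and 9.98 on Saline+Water. Its largest difference was 1.22-fold.

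Set against all genes, the counts were as follows. On the GN+Water-labelled array relative to Saline+Water, 3 of the 9 genes were higher (Sgk1, Tsc22d3 and Wnk1) and 0 lower, where 19.6% of all genes were higher and 15.3% lower. The median difference was 0.37 over the 9 genes and 0 over all genes. With Saline+Captopril as the baseline, Sgk1 alone was higher and the median was 0.19, where 518 of 8207 genes were higher and 249 lower. When GN+Captopril replaced the GN+Water-labelled array, the median was 0.028, with Tsc22d3 higher and Scnn1a lower, where 1409 of all genes were higher and 839 lower.

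On GN+Captopril relative to Saline+Captopril, 0 of 9 were higher and 1 lower, Sgk1, where 1.85% of all genes were higher and 0.207% lower. The median was −0.12, against 0 over all genes, and 7 of 9 genes were below 0. On GN+Captopril relative to the GN+Water-labelled array, 0 were higher and 1 lower, again Sgk1, where 3.7% of all genes were higher and 4.52% lower. The median was −0.27, against 0.0034 over all genes, and 8 of 9 genes were below 0, all but Scnn1b. The share of all genes below 0 was not counted for either comparison. These comparisons share the GN+Captopril array. On Saline+Captopril relative to Saline+Water, 2 were higher (Sgk1 and Tsc22d3) and 1 lower (Scnn1a), where 15.6% of all genes were higher and 10.2% lower, and the median was 0.15. The middle 90% of all genes, from the 5th to the 95th percentile, spanned −0.23 to 0.32 on GN+Captopril relative to Saline+Captopril, and −0.96 to 1.44 on the GN+Water-labelled array relative to Saline+Water. Sgk1 lay outside this range in 3 of 4 comparisons, all but captopril against water in saline kidneys. Tsc22d3 lay outside it in all 4. It was at 1.52 for GN on water, −0.38 for GN on captopril, −0.57 for captopril in GN and 1.33 for captopril in saline kidneys. The averaged Tsc22d3 probe sets were not set against this range. Scnn1a lay outside it only on GN+Captopril relative to Saline+Captopril, at −0.32.

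**Figure D3:**
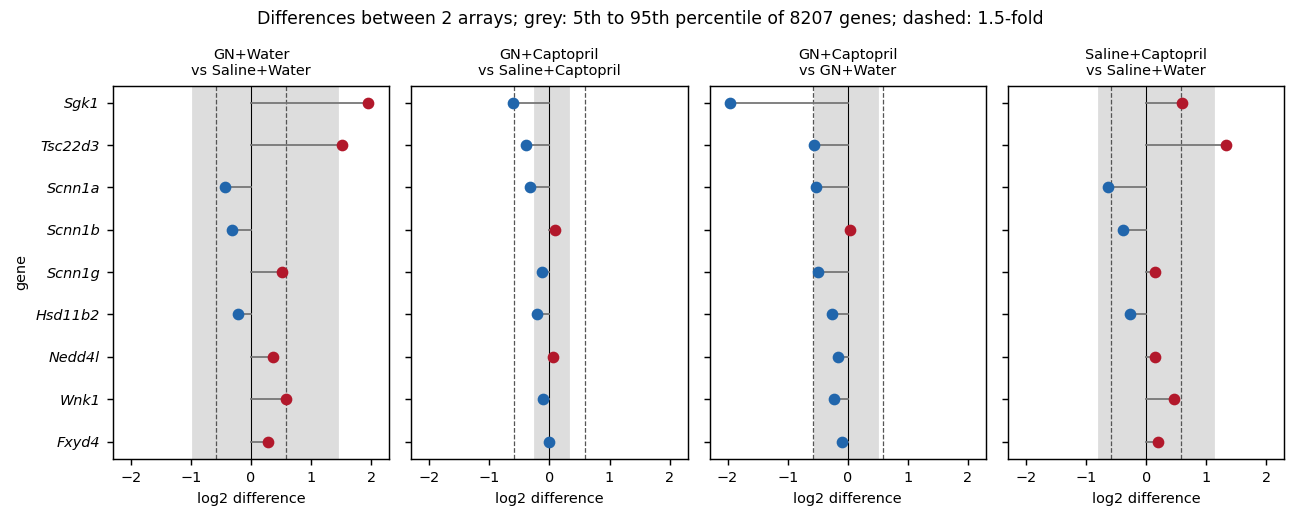
Log2 differences of the 9 genes, 1 panel per comparison, with the dot at the gene's difference and the grey band at the 5th to 95th percentile of 8207 genes. Dashed lines mark 1.5-fold. Sgk1 lies at 1.95, −0.61, −1.96 and 0.60 from left to right, and the band is widest in the panels that use Saline+Water.

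Further genes of the pathway were taken from lists chosen with earlier results of these data known. Among 14 measured genes of sodium channel processing and trafficking, 1 was higher and 2 lower on the GN+Water-labelled array than on Saline+Water. Of all genes 19.6% were higher and 15.3% lower there. On GN+Captopril relative to Saline+Captopril 0 passed in either direction, where 1.85% of all genes were higher and 0.207% lower. Against 3.7% of all genes higher and 4.52% lower, GN+Captopril had 2 of the 14 higher and 1 lower relative to the GN+Water-labelled array. The higher ones were the deubiquitinase genes Usp2 and Usp8, and the lower one was the membrane protease gene St14. Usp2, whose product acts against Nedd4l on the channel, was at 10.56 on GN+Captopril and 9.67 on the GN+Water-labelled array, against 10.25 on Saline+Captopril and 9.93 on Saline+Water, lowest where Sgk1 was highest. Usp8 was at 10.34 on GN+Captopril and 9.64 on the GN+Water-labelled array, against 10.13 on Saline+Captopril and 10.25 on Saline+Water. Usp10 was highest on Saline+Water, at 10.10 against 9.03 to 9.52. The Sgk1 relative Sgk3 was at 8.47 on GN+Captopril and 8.59 on the GN+Water-labelled array, against 8.47 on Saline+Captopril and 7.50 on Saline+Water, low on Saline+Water only. Averaged over its probe sets, Sgk3 was 0.47 higher on the GN+Water-labelled array than on Saline+Water in place of 1.09, and on Saline+Captopril it exceeded Saline+Water by 0.35 in place of 0.97, so neither difference then reached 1.5-fold.

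In the WNK kinase cascade and distal salt transport list, 1 of 9 measured genes was higher on the GN+Water-labelled array than on Saline+Water and 0 were lower. Of all genes 19.6% were higher and 15.3% lower there. The 1 higher was the potassium channel gene Kcnj10, by 0.66 (0.56 under quantile normalisation, inside the limit). On GN+Captopril relative to the GN+Water-labelled array, 1 of 9 was lower, Kcnj1, the potassium secretory channel ROMK, where 4.52% of all genes were lower. Kcnj1 was at 10.03 on GN+Captopril and 10.79 on the GN+Water-labelled array, against 10.28 on Saline+Captopril and 10.24 on Saline+Water. In the other 2 comparisons 0 of 9 passed, against the shares of all genes given above. Of 6 measured sodium pump beta subunits and FXYD proteins, Fxyd5 alone passed. It was 0.76 higher on the GN+Water-labelled array than on Saline+Water and 0.70 higher on GN+Captopril than on Saline+Captopril. Of all genes 19.6% were higher in the first of these comparisons and 1.85% in the second. Fxyd5 was at 8.02 on GN+Captopril and 8.25 on the GN+Water-labelled array, against 7.33 on Saline+Captopril and 7.49 on Saline+Water, so both GN arrays lay above both saline arrays. The pump subunit gene Atp1b1 stayed between 13.00 and 13.39.

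Partners of the corticosteroid receptors included 3 of 9 genes lower on the GN+Water-labelled array than on Saline+Water and 2 of 9 lower on Saline+Captopril than on Saline+Water, with 0 higher in either. Of all genes 15.3% and 10.2% were lower in these comparisons, and 19.6% and 15.6% higher, in that order. In the comparisons without Saline+Water 0 of 9 passed, where few of all genes did (the shares given above). The receptor cochaperone gene Fkbp4 was at 10.86 on GN+Captopril and 10.61 on the GN+Water-labelled array, against 10.82 on Saline+Captopril and 11.64 on Saline+Water. Averaged over its probe sets, Fkbp4 was −0.57 on Saline+Captopril relative to Saline+Water in place of −0.82, inside 1.5-fold. H6pd, which supplies cofactor to the glucocorticoid-activating enzyme Hsd11b1, was likewise highest on Saline+Water, at 11.09 against 10.01 to 10.23. The glucocorticoid receptor gene Nr3c1, the other receptor that these genes respond to, stayed between 9.94 and 10.14.

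Of 11 other corticosteroid-induced genes measured, 3 were higher and 1 lower on the GN+Water-labelled array than on Saline+Water. Of all genes 19.6% were higher and 15.3% lower there. On GN+Captopril relative to the GN+Water-labelled array, 0 of the 11 were higher, against 3.7% of all genes. The metallothionein genes Mt1 and Mt2, 2 of the 11, were lower, against 4.52% of all genes. Mt2 was at 10.70 on GN+Captopril and 11.36 on the GN+Water-labelled array, against 10.14 on Saline+Captopril and 10.39 on Saline+Water. Mt1 was at 11.58 on GN+Captopril and 12.32 on the GN+Water-labelled array, against 11.31 on Saline+Captopril and 11.90 on Saline+Water, but was 0.29 higher on GN+Captopril than on the GN+Water-labelled array when probe sets with the suffixes s and x were left out, and stood at −0.22 averaged over its probe sets. On GN+Captopril relative to Saline+Captopril 0 of 11 passed, where 1.85% of all genes were higher and 0.207% lower. On Saline+Captopril relative to Saline+Water 2 of 11 were higher and 2 lower, where 15.6% of all genes were higher and 10.2% lower. Of the 2 lower, Mt1 was inside the limit under those same probe set settings. Ddit4, a stress and glucocorticoid-induced inhibitor of growth signalling, was lowest on Saline+Water, at 7.87 against 8.76 to 9.18, and Ndrg2, known as an aldosterone-induced gene in rat collecting duct, was at 8.59 there against 9.36 to 9.75. The cochaperone gene Fkbp5, a target of both receptors and named after its values were seen, was lowest where Sgk1 was highest. It was at 9.25 on GN+Captopril and 8.81 on the GN+Water-labelled array, against 8.98 on Saline+Captopril and 9.59 on Saline+Water. Dusp1 and Errfi1 of this list were also lowest on the GN+Water-labelled array, while Mt1, Mt2, Ddit4, Cdkn1a and Pdk4 were highest there.

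**Figure D4:**
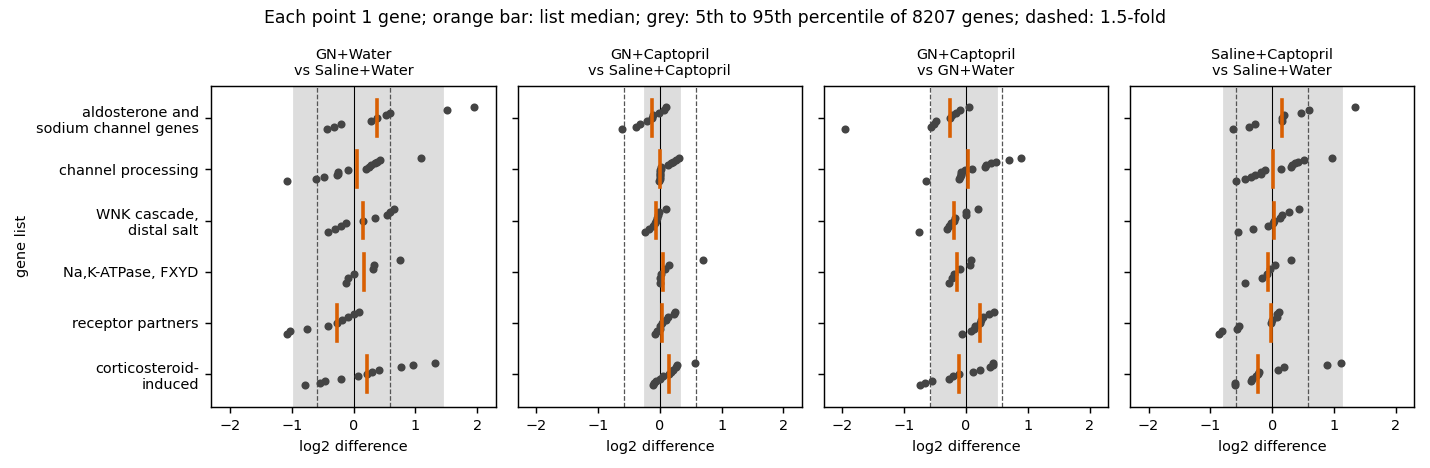
Log2 differences of the 9 genes and of 5 further lists, 1 panel per comparison, with 1 point per gene past the filter and an orange bar at the list median. The grey band is the 5th to 95th percentile of 8207 genes and dashed lines mark 1.5-fold. Points cluster near 0 in the second panel, and Sgk1 at −1.96 is the leftmost point of the third.

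Marker lists of other cell types differed in the array on which their summed level was highest. Leukocyte markers, of cells that also express Sgk1 and Tsc22d3, were higher in 6 of 7 measured genes on the GN+Water-labelled array than on Saline+Water. Of all genes 19.6% were higher there. On GN+Captopril relative to Saline+Captopril 5 of the 7 were higher, against 1.85% of all genes, while Sgk1 was lower by 0.61. On GN+Captopril 4 of the 7 were lower than on the GN+Water-labelled array, against 4.52% of all genes. The summed leukocyte level, as log2 of the summed linear values of all 8, was 12.92 on GN+Captopril and 13.58 on the GN+Water-labelled array, against 11.36 on Saline+Captopril and 11.37 on Saline+Water, and no marker lay at or under the background limit. Principal cell markers had a summed level of 11.33 on GN+Captopril and 11.85 on the GN+Water-labelled array, against 11.34 on Saline+Captopril and 11.19 on Saline+Water. Intercalated cell markers had one of 10.11 on GN+Captopril and 10.76 on the GN+Water-labelled array, against 10.29 on Saline+Captopril and 10.40 on Saline+Water. Proximal tubule markers had a sum of 14.87 on GN+Captopril and 14.72 on the GN+Water-labelled array, against 14.88 on Saline+Captopril and 15.06 on Saline+Water. Adipocyte markers had a sum of 11.70 on GN+Captopril and 11.57 on the GN+Water-labelled array, against 10.97 on Saline+Captopril and 10.65 on Saline+Water. Leukocyte, principal cell and intercalated cell sums were thus highest on the GN+Water-labelled array, the adipocyte sum on GN+Captopril and the proximal tubule sum on Saline+Water. The water channel gene Aqp4 was at 6.20 on GN+Captopril and 8.33 on the GN+Water-labelled array, against 6.35 on Saline+Captopril and 7.21 on Saline+Water, and Aqp2 was at 10.93 on the GN+Water-labelled array against 9.91 to 10.30 on the others.

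Genes of the immediate early response, which tissue handling is known to induce and to which Sgk1 is sometimes counted, had a summed level of 11.50 on GN+Captopril and 11.62 on the GN+Water-labelled array, against 11.20 on Saline+Captopril and 11.11 on Saline+Water. Relative to Saline+Water, the GN+Water-labelled array had 5 of 9 measured higher and 1 lower, where 19.6% of all genes were higher and 15.3% lower. The median of the 9 was 0.69, with Klf6 higher by 1.78 and Egr1 by 1.15. Relative to Saline+Captopril, GN+Captopril had 2 of the 9 higher and 0 lower, where 1.85% of all genes were higher and 0.207% lower. Klf6 alone of the 9 passed on GN+Captopril relative to the GN+Water-labelled array, where it was lower by 0.75 and 4.52% of all genes were lower. Fos reached 5.26 to 5.82 on 3 arrays and lay at or under the background limit on Saline+Water. Androgen-responsive kidney genes were lower on the GN+Water-labelled array than on Saline+Water in 5 of 5, where 15.3% of all genes were. Of these, Acsm3 was at 6.20 there against 12.47 to 12.57 on the other arrays. Adrenal markers, from the gland beside the kidney, had a summed level of 8.31 on GN+Captopril and 8.17 on the GN+Water-labelled array. The sum was 8.29 on Saline+Captopril and 8.66 on Saline+Water. Of the 6 on the array Cyp21a1 alone was past the filter, at 7.24 on Saline+Water against 5.89 to 6.20 on the others. The aldosterone synthase gene Cyp11b2 was at 4.76 to 5.56. The part of leukocytes, principal cells, tissue handling or sex in the Sgk1 difference was not tested. Sex cannot be told apart from group here, as the Xist and Eif2s3y pattern lay on the GN+Water-labelled array alone.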

How the data were processed

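The deposited table held 1 log2 value for each of 22690 probe sets on each of 4 arrays, and its values, 3.10 to 14.7, were judged by their range to be log2 as the authors deposited them. The submitters' processing notes name GCOS and RMA, and per the labels' protocols biotinylated cRNA was made from 6 µg of total RNA. Beyond these names, details of the normalisation are not given in any source used, nor are genome build and probe version.

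Probe sets were named from the platform annotation, and Entrez IDs gave current symbols (GRCm38.p6 gene table): 20393 had 1 symbol, 691 several and 1606 none. The probe set with the highest mean stood for a gene, and genes under 6.27, the 40th percentile over probe sets, were left out. The background limit was the 90th percentile over 27 negative controls, 4.36 to 4.81. Differences are between 2 arrays, with 0 residual degrees of freedom and no test, so the number of arrays limits the precision. All 10 genes were to be named, with up to 4 genes of each further list by range over the arrays, genes that define a cell type, and the 3 nearest profiles of genes with a range of at least 1. Fkbp5, Nr3c1 and Acnat2 were named after their values were seen. So were St14, Dusp1, Errfi1, Cdkn1a and Pdk4, which the rule by range did not name. The genes and lists were chosen with earlier results of these data known. Alternatives were 3 normalisations (limma 3.58.1 in R 4.3.3), other probe set choices, filters and thresholds, and other baseline arrays. Counting was tested on simulated data (Python 3.11.15).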

Additional observations from a re-analysis of the deposited data

Results flagged for a closer look

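Sgk1 drew attention because its differences of at least 1.5-fold ran in opposite directions in the 2 settings of each contrast. For GN against saline it was −0.61 on captopril and 1.95 on water. For captopril against water it was −1.96 in GN and 0.60 in saline kidneys. The last value was 0.58 under median centring and 0.52 under quantile normalisation and cyclic loess, inside 1.5-fold, so the captopril contrast then no longer meets this condition. By the deposited values, the first minus the second is −2.56 in both contrasts, a value taken from 1 array per group, and the difference was not tested. None of the other 8 measured genes met this condition.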

How the results depend on the processing

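Of 36 single differences of the 9 genes, none changed sign under median centring, quantile normalisation or cyclic loess, and 2 to 3 changed their side of 1.5-fold. Wnk1 on water and Sgk1 in saline kidneys then fell short of 1.5-fold, and Tsc22d3 in GN kidneys reached it under quantile normalisation and cyclic loess. Averaging the probe sets of a gene changed 1 sign and 1 side. It also brought all 4 Tsc22d3 differences closer to no difference, each with its direction kept.

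The median over the 9 genes on the GN+Water-labelled array relative to Saline+Water was 0.37. It was 0.47 as a mean over the genes, 0.19 with Saline+Captopril as the baseline and 0.028 with GN+Captopril in place of the GN+Water-labelled array. On GN+Captopril relative to the GN+Water-labelled array the median of −0.27 was −0.47 as a mean and −0.38 over the 8 genes past a 60th percentile filter. The other medians moved by less than 0.1, a tolerance set after seeing the data.

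With GN+Captopril in place of the GN+Water-labelled array, Sgk1 was at −0.010 in place of 1.95 and Usp8 at 0.086 in place of −0.61. With Saline+Captopril as the baseline, Ndrg2 was at −0.34 in place of 0.77. Without probe sets of suffix s or x, Mt1 was at 0.29 in place of −0.74 on GN+Captopril relative to the GN+Water-labelled array. The causes were not tested.

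Genes past the limit numbered 2861 (GN on water), 169 (GN on captopril), 675 (captopril in GN) and 2113 (captopril in saline), and 1212, 61, 206 and 699 at 2-fold. With a 60th percentile filter, which tests 5755 genes, 100 passed for GN on captopril and 1400 for captopril in saline.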
